A study of Oryza longistaminata with 9 samples.

Results

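In the table of values for anthers of the wild rice Oryza longistaminata, 57 of 46327 gene models were listed as ribosomal proteins of the kind found in plastids and mitochondria. They were chosen by the words of the table alone: the description held "ribosomal protein" together with the chloroplast or mitochondria, or together with one of a set of Pfam protein families of bacterial type, and genes described as methyltransferases or kinases were left out. RNA was measured by sequencing in anthers, the organs that make pollen. The Ls-6mm group held anthers of 6-mm spikelets, which the study places at stage 6, when microspore mother cells form and the tapetum, the innermost wall layer, develops. The Ls-4mm group held anthers of 4-mm spikelets, placed at stage 4, when primary sporogenous cells arise. Each stage had 3 libraries, made from oligo(dT)-enriched RNA of field-grown plants of one wild species, with no treatment or mutation named. The labels do not tell whether the libraries of a stage stem from different plants, and the p-values therefore cover the spread among these libraries only, which may be technical.

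Plastids and mitochondria descend from bacteria and keep ribosomes of their own, with a small and a large subunit whose proteins resemble those of bacteria rather than those of the cytosol. In plants most of these proteins are encoded in the nucleus, made in the cytosol and imported, and a minority are still encoded in the organelle genomes. The organelle ribosomes make core subunits of the photosystems in plastids and of the respiratory chain in mitochondria, and anthers are known for a heavy demand on mitochondria.

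By their descriptions the 57 genes fell into 3 classes. A first class of 36 genes was named only by a protein family, and the table gives no compartment for them. A second class of 10 genes had a description that names mitochondria, although the 3 L24 genes among them carry a family name that covers the bacterial-type 50S subunit as well as the mitochondrial 39S subunit, and 2 carry the L51/S25/CI-B8 domain, which is also that of a subunit of respiratory complex I. The last class of 11 genes was described as chloroplastic and consisted of 5 models of rps3, 3 of rps14, 2 of rpl22 and 1 of rpl23-B, which are names of genes of the plastid genome. The label "plastid and mitochondrial" therefore holds for most of these genes by family only.

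The libraries held 17076800 to 21232663 counts in Ls-6mm and 14509449 to 16684146 counts in Ls-4mm. Counts of 2 libraries of the same stage differed by 2.06 to 3.50 times the sampling noise (chi-square over its degrees of freedom), which is more than a second count of the same library would give. A gene was tested where its counts were high enough for at least 3 libraries, and was called where the adjusted p of edgeR's quasi-likelihood test was under 0.05. Of 23691 genes tested in the whole table, 80.6% were called, 42.0% as higher and 38.6% as lower in Ls-6mm, so a call by itself was common between these stages.

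The genes described as chloroplastic drew almost no counts in either stage. All 11 together held 1 count in the 3 Ls-6mm libraries and 10 counts in the 3 Ls-4mm libraries, 6 of them were at 0 in every library, and none was tested. A count of 0 over a stage allows a level of up to 0.0537 CPM (counts scaled to a common library size of 1e6) in Ls-6mm and 0.0634 CPM in Ls-4mm (3 counts over the summed libraries, for counting error only). The 5 models of rps3, a protein of the small subunit, all had a coding length of 720 bases, the 3 of rps14 one of 312 bases and the 2 of rpl22 one of 450 bases. Genes with such copies can share reads, and the libraries were made from oligo(dT)-enriched RNA, so their separate counts are uncertain and say nothing about the level of transcripts made in the plastid itself. The part of either step in these low counts was not tested. A pair of them lay side by side on the scaffold AAAA02046461.1, with rpl22 (BGIOSGA040026) from 1409 to 1858 and rps3 (BGIOSGA040027) from 1914 to 2633. A pair of rps14 models (BGIOSGA033317 and BGIOSGA033318) lay side by side on chromosome 10, from 19473325 to 19473636 and from 19474636 to 19474947. The table does not name its genome assembly, so positions are given as listed.

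Besides these 11 genes, another 7 genes of the first class were not tested. The untested genes were 18 in all, of which 9 were at 0 everywhere and 9 held at most 23 counts over the 6 libraries, and 8 of the 18 lay on unplaced scaffolds. A run of 3 neighbouring S21 models on chromosome 8 belonged to them: BGIOSGA027905, BGIOSGA027906 and BGIOSGA027907 held 17, 1 and 23 counts in total, whereas the S21 genes on chromosomes 2 and 3 were well expressed. The remaining 39 genes were tested, 29 of the first class and 10 of the mitochondrial class, and all of them lay on the 12 chromosomes. Their median level was 43.2 FPKM (fragments per kilobase, scaled for depth) in Ls-6mm and 52.8 FPKM in Ls-4mm, against 12.5 FPKM and 11.5 FPKM over all genes tested.

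Most of the tested ribosomal protein genes were lower in the older anthers, and a smaller set was clearly higher. Among the 39 genes, 26 were called lower, 10 higher and 3 neither, that is 36 called, and the share called lower was above the 38.6% of all genes while the share called higher was below their 42.0%. The groups did not overlap for 35 of the 39 genes, against 81.7% of all genes tested. The median log2 fold change (Ls-6mm over Ls-4mm) was −0.49, against 0.04 over all genes tested. Scaling by library size alone moved the median of all genes by −0.14, to −0.10, and that of these genes to −0.63, and each of the 36 calls kept its direction. A change of at least 2-fold was found for 5 genes that rose (24.7% of all genes tested) and 6 that fell (14.4% of all genes tested). Both the 5 and the 10 higher genes include BGIOSGA017542, a low-count gene that passed the filter through the Ls-6mm libraries alone. With at least 10 counts required in every library, 9 genes were called higher and 26 lower. The 26 lower genes summed to 473 ± 8.17 CPM in Ls-6mm and 823 ± 3.05 CPM in Ls-4mm, and the 10 higher genes to 335 ± 11.4 CPM in Ls-6mm and 170 ± 2.22 CPM in Ls-4mm (SD, n = 3 each). All 57 genes together came to 1025 ± 8.79 CPM in Ls-6mm and 1219 ± 10.7 CPM in Ls-4mm. In bulk anthers, fewer cells of a type and less RNA per cell cannot be told apart.

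**Figure D1:**
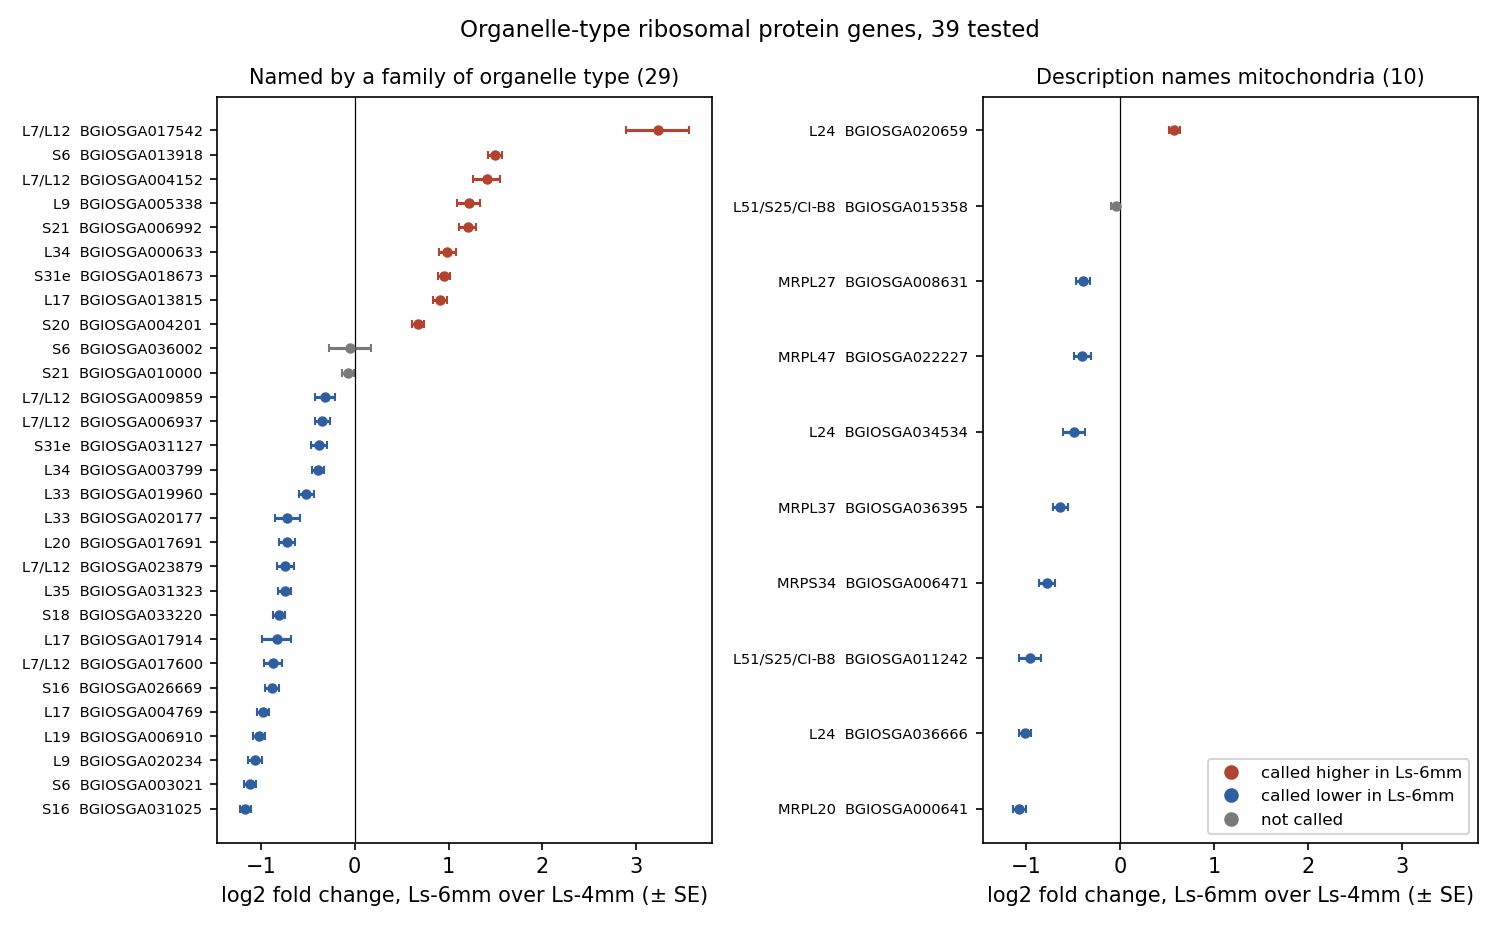
Log2 fold change (Ls-6mm over Ls-4mm) with its standard error for the 39 tested genes, the 29 named by a family at left and the 10 whose description names mitochondria at right, coloured by call. The points run from −1.17 for an S16 gene to 3.23 for an L7/L12 gene, with 26 called lower and 10 called higher.

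By subunit, the calls were as follows, beside 38.6% lower and 42.0% higher over all genes tested. Of the 25 tested genes of the large subunit, 19 were lower and 6 higher (median log2 fold change −0.51), and their summed level was 507 ± 8.09 CPM in Ls-6mm and 673 ± 3.73 CPM in Ls-4mm. Of the 12 tested genes of the small subunit, 6 were lower, 4 higher and 2 not called (median −0.23), shares nearer to those of all genes, and they summed to 354 ± 16.4 CPM in Ls-6mm and 367 ± 3.15 CPM in Ls-4mm. The difference between the subunits was not tested. In the mitochondrial class 8 of 10 genes were lower and 1 was higher (median −0.57), and in the class named by family 18 of 29 were lower and 9 higher (median −0.39).

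Leaving aside the L24 and L51/S25/CI-B8 genes, whose family names also cover other proteins, the rest of the mitochondrial class all fell. The rest were MRPL20, MRPS34, MRPL37, MRPL47 and MRPL27. The genes set aside hold the only rise of the class and its only gene that was not called. Over all genes tested, 38.6% were lower. MRPL20 (BGIOSGA000641, chromosome 1 from 37371401 to 37374259) stood at 29.2, 29.3 and 25.5 CPM in the Ls-6mm libraries and at 55.0, 60.7 and 61.4 CPM in the Ls-4mm libraries. All Ls-6mm libraries were thus well under the lowest Ls-4mm library, and the log2 fold change was −1.08 ± 0.07 (SE, adjusted p = 1.40e-10). The small-subunit protein MRPS34 (BGIOSGA006471) had 12.0, 13.3 and 14.0 CPM in Ls-6mm and 23.6, 22.9 and 21.2 CPM in Ls-4mm, again with no overlap (−0.78 ± 0.09, adjusted p = 3.57e-07). MRPL37 (BGIOSGA036395), MRPL47 (BGIOSGA022227) and MRPL27 (BGIOSGA008631) had smaller falls, with log2 fold changes of −0.64 ± 0.08, −0.41 ± 0.09 and −0.40 ± 0.07, and their stages did not overlap either. At 23.3, 27.9 and 24.8 CPM in Ls-6mm and 35.2, 32.9 and 32.5 CPM in Ls-4mm, MRPL27 was the most abundant of these 3 genes per length, with 55.4 FPKM in Ls-6mm and 75.4 FPKM in Ls-4mm.

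The most abundant gene of all 57, BGIOSGA015358, did not follow them. It carries the L51/S25/CI-B8 domain and had 161, 156 and 149 CPM in Ls-6mm and 153, 161 and 168 CPM in Ls-4mm, so that the stages overlapped (−0.05 ± 0.04, adjusted p = 0.311). Per length it reached 496 FPKM in Ls-6mm and 527 FPKM in Ls-4mm. With library-size scaling alone it was called lower, at −0.19 (adjusted p = 0.000706). The second gene with this domain, BGIOSGA011242, fell instead, with 9.75, 9.42 and 8.06 CPM in Ls-6mm and 19.9, 15.2 and 18.3 CPM in Ls-4mm and no overlap (−0.97 ± 0.12, adjusted p = 7.90e-07). The mitochondrial class summed to 343 ± 5.61 CPM in Ls-6mm and 433 ± 7.03 CPM in Ls-4mm, and without BGIOSGA015358 to 188 and 272 CPM.

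Among the small-subunit genes named by family, S16 showed the largest fall. S16 joins the ribosomal RNA early in the assembly of the bacterial small subunit. The S16 gene BGIOSGA031025 (chromosome 9 from 17900161 to 17901494) had 26.9, 26.1 and 25.5 CPM in Ls-6mm and 55.8, 60.4 and 59.9 CPM in Ls-4mm, far apart and tight within each stage (−1.17 ± 0.06, adjusted p = 7.38e-12). The second S16 gene, BGIOSGA026669 on chromosome 8, moved the same way, with 17.5, 16.9 and 16.5 CPM in Ls-6mm and 32.6, 31.4 and 29.7 CPM in Ls-4mm (−0.88 ± 0.07). The summed level of both S16 genes in Ls-6mm was 0.480 times that in Ls-4mm, the lowest ratio of the 11 families that had 2 or more tested genes. S18 (BGIOSGA033220) also fell, with 20.9, 21.5 and 20.5 CPM in Ls-6mm against 36.9, 35.2 and 38.2 CPM in Ls-4mm (−0.81 ± 0.07).

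S20 was the exception among the small-subunit families with 1 tested gene. S20 (BGIOSGA004201, chromosome 1 from 31212903 to 31214601), which binds the ribosomal RNA of the small subunit in bacteria, rose. It had 53.8, 53.9 and 60.3 CPM in Ls-6mm and 34.4, 33.2 and 37.4 CPM in Ls-4mm, with every Ls-6mm library above every Ls-4mm library (0.68 ± 0.06, adjusted p = 4.04e-08). Of the 10 genes that were alone in their family among the tested genes of the rule, S20 was the 1 that rose. The other 9 fell (median −0.73 over the 10), beside 38.6% lower over all genes tested. Outside the rule, L20 and L35 each had a further tested gene. The further L35 gene (BGIOSGA023367) rose (1.71 ± 0.12), and the further L20 gene (BGIOSGA004405) fell (−0.89 ± 0.07).

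Some families held genes that moved in opposite directions. Of the 11 families with 2 or more tested genes, 7 held at least 1 gene called higher and at least 1 called lower. These were L17, L24, L34, L7/L12, L9, S31e and S6. The S21 family had 1 higher gene and 1 that was not called, the S16 and L33 families had falls in both genes, and the L51/S25/CI-B8 pair had 1 fall. Opposite calls also occurred among the other Pfam families of the table. Of the families with 2 tested genes, 3 of 7 held opposite calls here, against 68 of 372 others, and of those with 3 tested genes, 3 of 3 did, against 76 of 195 others. The L7/L12 family had 6 tested genes, a size at which 34 of 39 other families held opposite calls. These shares are a description, and the difference was not tested. The families were matched by number of tested genes only. Of the tested genes of the rule 92.3% were called, against 80.6% of all genes tested, and opposite calls need called genes. Whether the genes of a family serve different organelles is not given in the table.

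**Figure D2:**
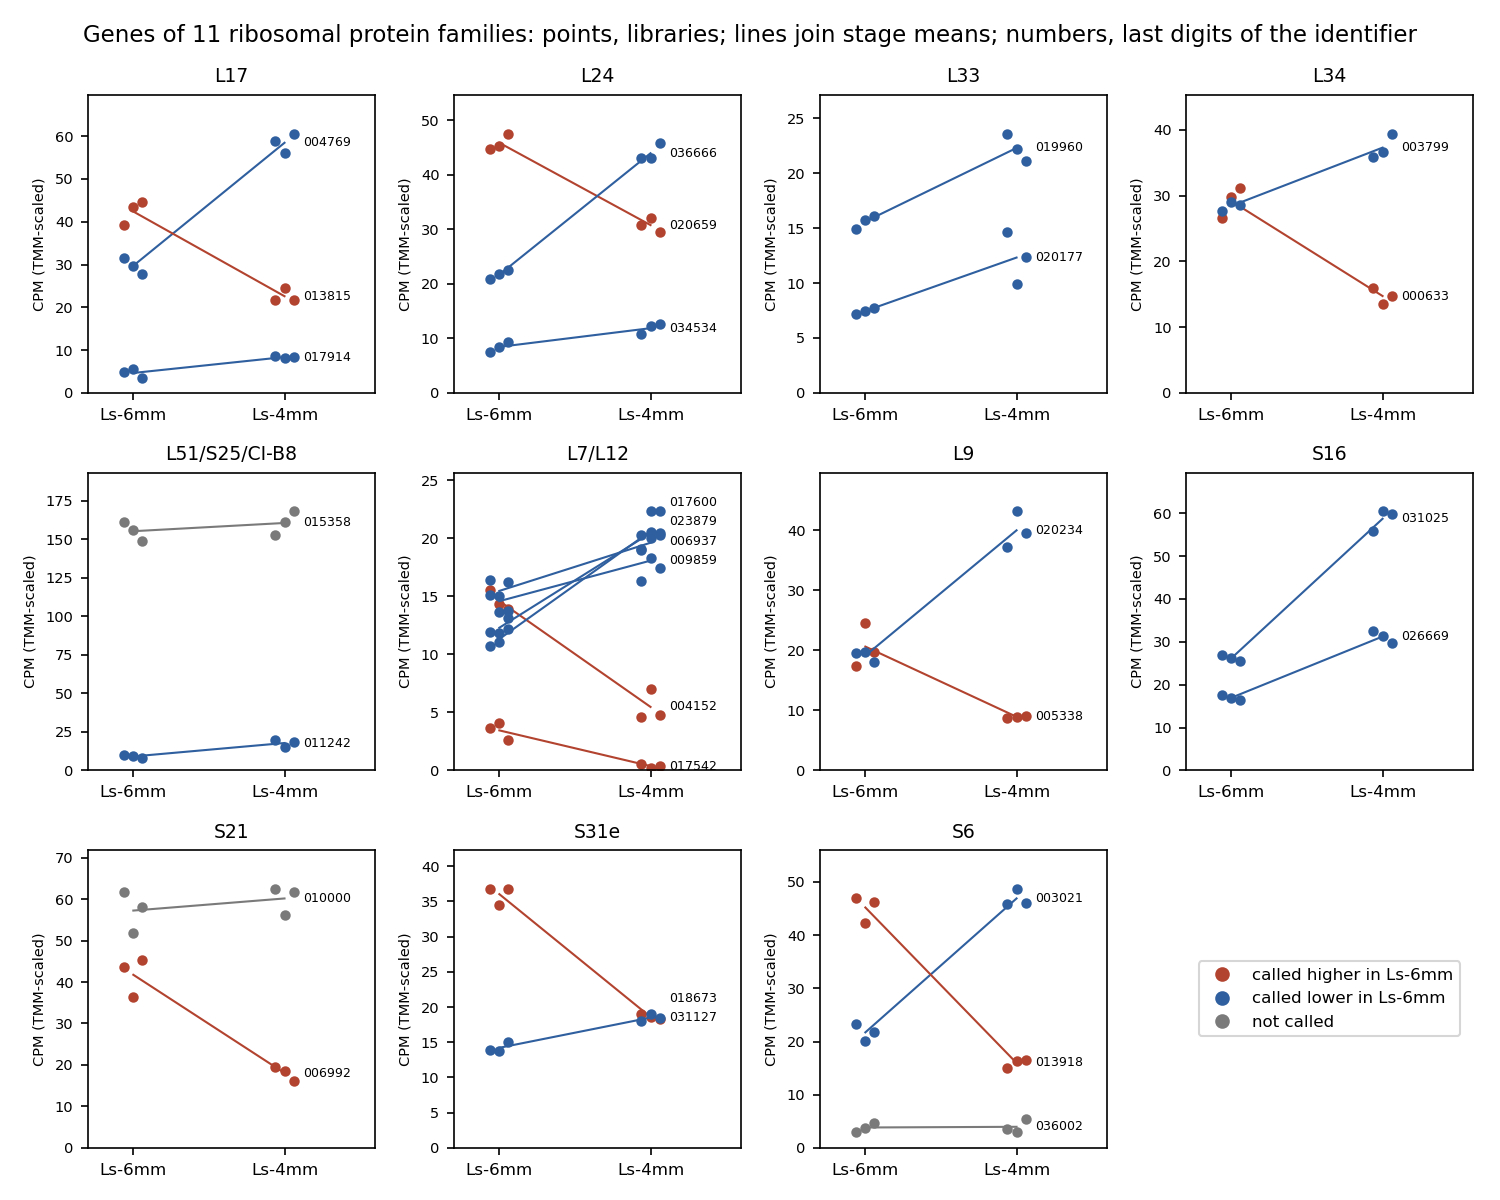
Level of each tested gene in the 11 families with 2 or more tested genes, as CPM scaled by the trimmed mean of M values, with Ls-6mm left of Ls-4mm in each panel. Points are the 3 libraries of each stage and lines join the stage means. In S6, L17, L24, L34 and L9 the lines of the higher and the lower genes cross between the stages. In L7/L12 the line of BGIOSGA004152 crosses those of some falling genes. For L34 the crossing is slight (BGIOSGA000633 29.2 and BGIOSGA003799 28.4 CPM in Ls-6mm) and absent per length (55.4 and 63.0 FPKM). Both S16 genes and both L33 genes are lower in Ls-6mm.

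S6, a protein of the platform of the small subunit, gave the clearest case. BGIOSGA013918 (chromosome 3 from 39825077 to 39826614) had 47.1, 42.3 and 46.2 CPM in Ls-6mm and 15.0, 16.4 and 16.4 CPM in Ls-4mm, with all Ls-6mm libraries far above all Ls-4mm libraries (1.50 ± 0.07, adjusted p = 3.92e-12). BGIOSGA003021 (chromosome 1 from 7044141 to 7047033) showed the reverse, with 23.3, 20.1 and 21.8 CPM in Ls-6mm and 45.9, 48.7 and 46.1 CPM in Ls-4mm (−1.11 ± 0.07, adjusted p = 9.60e-11). Per length, BGIOSGA013918 had 66.8 FPKM in Ls-6mm and 24.3 FPKM in Ls-4mm, and BGIOSGA003021 had 38.5 FPKM in Ls-6mm and 85.5 FPKM in Ls-4mm, so the more abundant gene of the pair differed between the stages. The remaining S6 gene, BGIOSGA036002, was low in both stages, at 3.05, 3.80 and 4.67 CPM in Ls-6mm and 3.52, 2.95 and 5.44 CPM in Ls-4mm, and was not called (−0.05 ± 0.23, adjusted p = 0.842). The 3 genes together differed little, at 70.8 ± 4.01 CPM in Ls-6mm and 66.8 ± 2.04 CPM in Ls-4mm.

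S21 and S31e, also of the small subunit by their family names, held 1 rising gene each. The S21 gene BGIOSGA006992 (chromosome 2 from 5751263 to 5752252) had 43.6, 36.4 and 45.3 CPM in Ls-6mm and 19.5, 18.4 and 16.2 CPM in Ls-4mm, without overlap (1.21 ± 0.09, adjusted p = 1.80e-09). The more abundant S21 gene per length in both stages, BGIOSGA010000 (126 FPKM in Ls-6mm and 136 FPKM in Ls-4mm, against 90.6 and 40.3 FPKM for BGIOSGA006992), had 61.6, 51.9 and 58.2 CPM in Ls-6mm and 62.5, 56.2 and 61.8 CPM in Ls-4mm, and its stages overlapped (−0.07 ± 0.06, adjusted p = 0.290). With library-size scaling alone BGIOSGA010000 was called lower, at −0.21 (adjusted p = 0.00583). The S31e gene BGIOSGA018673 on chromosome 5 rose, with 36.8, 34.5 and 36.8 CPM in Ls-6mm and 19.0, 18.5 and 18.3 CPM in Ls-4mm (0.95 ± 0.07). BGIOSGA031127, the S31e gene on chromosome 9, fell slightly, with 13.9, 13.7 and 15.0 CPM in Ls-6mm and 18.0, 19.0 and 18.5 CPM in Ls-4mm (−0.38 ± 0.08).

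In the large subunit, the L7/L12 family was the largest, with 6 tested genes. L7/L12 forms the flexible stalk through which translation factors bind the bacterial ribosome. BGIOSGA017542 (chromosome 5 from 29636615 to 29637154) had the largest fold change of the 39 genes, from low counts: 61, 82 and 43 counts in the Ls-6mm libraries and 9, 3 and 6 counts in the Ls-4mm libraries, or 3.65, 4.05 and 2.64 CPM in Ls-6mm and 0.586, 0.173 and 0.355 CPM in Ls-4mm. It passed the filter on low counts through the Ls-6mm libraries alone, so that a difference was built into its entering the test, and its log2 fold change of 3.23 ± 0.34 is given as a description. It was the only tested gene with a library under 10 counts. BGIOSGA004152, whose model is only 156 bases long, rose as well, with 15.5, 14.4 and 13.9 CPM in Ls-6mm and 4.56, 7.05 and 4.79 CPM in Ls-4mm (1.41 ± 0.14). The other 4 genes fell, BGIOSGA017600 by 0.87, BGIOSGA023879 by 0.74, BGIOSGA006937 by 0.34 and BGIOSGA009859 by 0.31 on the log2 scale. The stages of BGIOSGA009859 overlapped, and without replicate 2 of Ls-4mm or replicate 2 of Ls-6mm it was no longer called (adjusted p = 0.0748 and 0.0518). The summed level of the family was 71.7 ± 1.72 CPM in Ls-6mm and 84.5 ± 4.35 CPM in Ls-4mm.

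L9, L17, a protein near the exit of the peptide tunnel, and L24, which starts the assembly of the bacterial large subunit, also held genes called in opposite directions. The L9 gene BGIOSGA005338 (chromosome 2 from 37515891 to 37518049) had 17.5, 24.6 and 19.8 CPM in Ls-6mm and 8.79, 8.90 and 9.11 CPM in Ls-4mm, without overlap (1.21 ± 0.12, adjusted p = 7.13e-08). The other L9 gene, BGIOSGA020234 (chromosome 5 from 27689195 to 27691634), had 19.6, 19.7 and 18.1 CPM in Ls-6mm and 37.3, 43.2 and 39.6 CPM in Ls-4mm (−1.06 ± 0.07, adjusted p = 5.60e-10). Per length, BGIOSGA005338 and BGIOSGA020234 stood close together in Ls-6mm, at 32.6 and 29.5 FPKM, and far apart in Ls-4mm, at 14.5 and 63.4 FPKM.

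For L17, BGIOSGA013815 on chromosome 3 had 39.1, 43.4 and 44.6 CPM in Ls-6mm and 21.7, 24.5 and 21.6 CPM in Ls-4mm (0.91 ± 0.07). BGIOSGA004769 on chromosome 1 went the other way, with 31.6, 29.7 and 27.9 CPM in Ls-6mm and 58.7, 56.0 and 60.5 CPM in Ls-4mm (−0.97 ± 0.06, adjusted p = 1.41e-10). The minor L17 gene BGIOSGA017914 on chromosome 5, with the same coding length of 486 bases as BGIOSGA004769, fell beside it (−0.83 ± 0.15). The L24 gene BGIOSGA020659 on chromosome 6 was the only rising gene of the mitochondrial class, with 44.7, 45.3 and 47.5 CPM in Ls-6mm and 30.8, 32.1 and 29.4 CPM in Ls-4mm (0.57 ± 0.06, adjusted p = 1.25e-07). BGIOSGA036666 on chromosome 12 fell, with 20.9, 21.7 and 22.4 CPM in Ls-6mm and 43.1, 43.0 and 45.7 CPM in Ls-4mm (−1.02 ± 0.06, adjusted p = 1.46e-10). The remaining L24 gene, BGIOSGA034534 on chromosome 11, also fell (−0.49 ± 0.12). It has the same coding length of 480 bases as BGIOSGA036666. Equal length alone does not show shared reads, and whether this pair shares reads could not be measured.

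The remaining large-subunit families consist of small or interface proteins. Of the L34 genes, BGIOSGA000633 had 26.6, 29.7 and 31.1 CPM in Ls-6mm and 16.0, 13.5 and 14.7 CPM in Ls-4mm (0.99 ± 0.09), whereas BGIOSGA003799 had 27.7, 29.1 and 28.5 CPM in Ls-6mm and 35.9, 36.6 and 39.4 CPM in Ls-4mm (−0.39 ± 0.06). L19 (BGIOSGA006910), which lies at the contact between the subunits in bacteria, had 32.7, 31.9 and 28.2 CPM in Ls-6mm and 64.7, 63.7 and 59.5 CPM in Ls-4mm, a fall with no overlap (−1.02 ± 0.06, adjusted p = 1.30e-10). L20 (BGIOSGA017691) and L35 (BGIOSGA031323) fell as well, with log2 fold changes of −0.72 ± 0.08 and −0.75 ± 0.07. Both L33 genes on chromosome 5, BGIOSGA019960 and BGIOSGA020177, fell (−0.51 ± 0.08 and −0.72 ± 0.14). Both models are 174 bases long, and whether they share reads could not be measured.

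The ratio of 2 genes of 1 family within the same library does not depend on the scaling between libraries. It was computed for all 31 pairs of tested genes, a measure chosen after the data were seen. For the 16 pairs that joined a higher with a lower gene, the direction of the ratio follows from the calls that chose them, and only its size is described. For S6, the count of BGIOSGA013918 over that of BGIOSGA003021 was 2.02, 2.11 and 2.12 in Ls-6mm and 0.328, 0.337 and 0.357 in Ls-4mm, a 6.12-fold difference. The corresponding difference was 4.77-fold for L9 (BGIOSGA005338 over BGIOSGA020234), 3.69-fold for L17 (BGIOSGA013815 over BGIOSGA004769), 3.02-fold for L24 (BGIOSGA020659 over BGIOSGA036666), 2.59-fold for L34 (BGIOSGA000633 over BGIOSGA003799) and 2.52-fold for S31e (BGIOSGA018673 over BGIOSGA031127). In L7/L12 it ran from 3.36-fold to 4.95-fold for the 4 pairs with BGIOSGA004152 and from 12.7-fold to 18.7-fold for those with the low-count gene BGIOSGA017542. Over all pairs the ratios of the stages did not overlap in 27 of 31, a count that includes those 16 and is no independent support for the calls. The exact two-sided permutation test gave p = 0.1 for these 27 pairs, which is the smallest that 3 libraries against 3 allow (0.115 after Benjamini-Hochberg adjustment over 31 pairs), so this test could not reach 0.05.

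**Figure D3:**
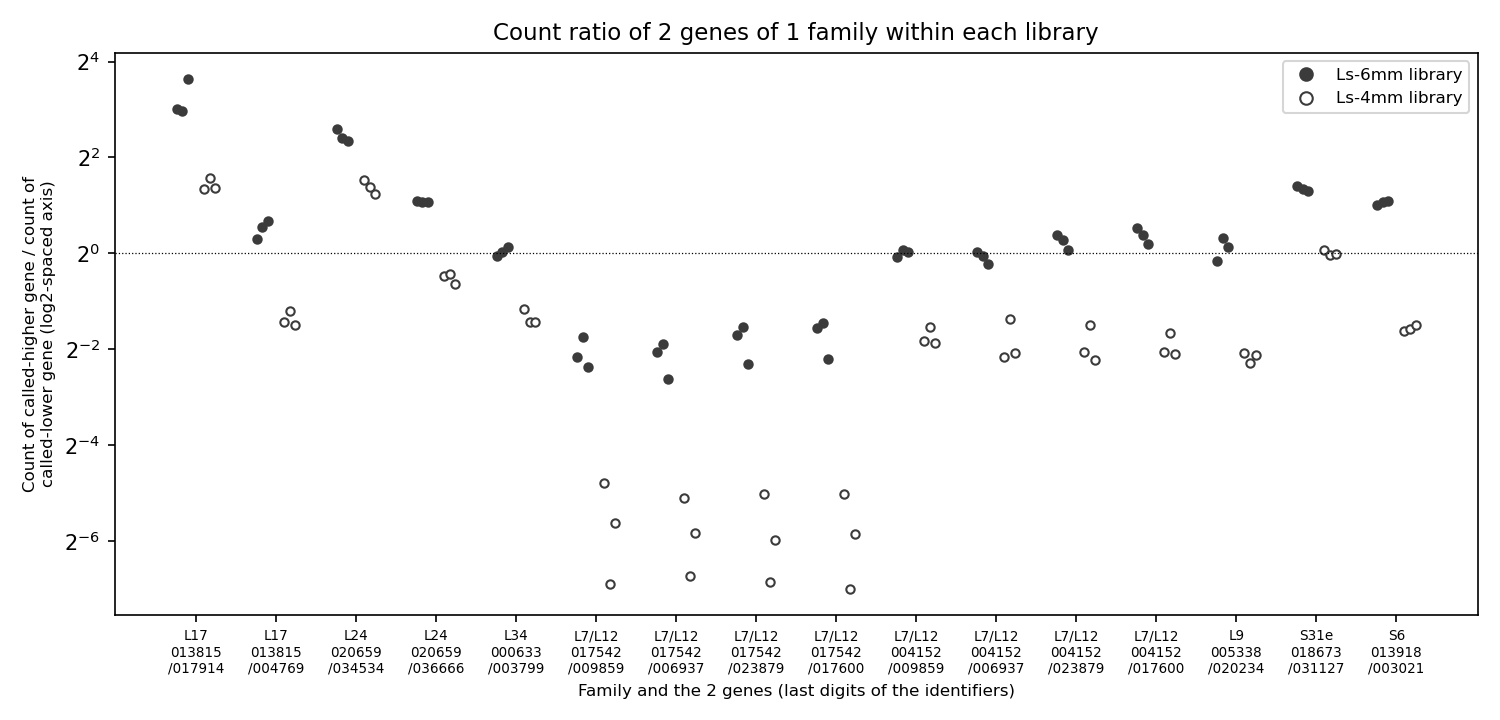
Ratio of the counts of a called-higher gene to those of a called-lower gene of the same family, in each library, for the 16 pairs of that kind, on a log2-spaced axis (filled points, Ls-6mm; open points, Ls-4mm). The pairs were chosen by their opposite calls, which sets the direction, and the plot shows the size of the gap, for example 2.02 to 2.12 in Ls-6mm against 0.328 to 0.357 in Ls-4mm for S6.

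Because opposite changes offset each other, the summed level of a family moved less than its single genes in several families. The ratio of summed CPM, Ls-6mm over Ls-4mm, was 1.06 for S6, 1.11 for L34, 0.878 for L24, 0.858 for L17, 0.848 for L7/L12 and 0.813 for L9. It was further from 1 for S31e (1.35), S21 (1.27), L33 (0.666) and S16 (0.480). Scaled by library size alone, the S6 sum turned from slightly higher in Ls-6mm (log2 difference 0.08) to slightly lower (−0.05).

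The genes that work with these ribosomes gave a mixed picture. All 3 tested translation factors with an organelle in their description were called, as were 80.6% of all genes tested. Elongation factor G of the chloroplast (BGIOSGA014643), which moves the ribosome along the mRNA, had 49.6, 48.4 and 44.7 CPM in Ls-6mm and 19.3, 18.4 and 18.9 CPM in Ls-4mm, a rise with no overlap (1.34 ± 0.07, adjusted p = 6.39e-12). Elongation factor Ts of mitochondria (BGIOSGA037533), which recharges the factor that delivers tRNAs, rose as well, with 68.2, 66.0 and 64.9 CPM in Ls-6mm and 33.7, 32.7 and 29.6 CPM in Ls-4mm (1.05 ± 0.06, adjusted p = 2.70e-11). Elongation factor G of mitochondria (BGIOSGA012987) fell, with 49.8, 56.0 and 54.5 CPM in Ls-6mm and 77.4, 76.9 and 72.9 CPM in Ls-4mm (−0.50 ± 0.05, adjusted p = 1.58e-07). The 3 models of the chloroplast initiation factor IF-1 were at 0 in every library.

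Lists of neighbouring functions differed from one another in their calls. For comparison, 42.0% of all genes tested were higher and 38.6% lower. Of 66 tested genes of pentatricopeptide repeat proteins, which bind and process organelle RNAs, 46 were lower and 4 higher (median log2 fold change −0.77), and of 5 with the CRM domain, which is found in splicing factors of organelle introns, 3 were lower and 2 not called. Of 10 tested chaperonins, whose descriptions name a family but no compartment, 8 were lower and 2 not called (median −0.76). Of 3 tested protein import genes 2 were lower. Of 4 tested sigma factors, which direct the bacterial-type RNA polymerase of plastids, 3 were higher and 1 was not called (median 0.45). The smallest of these rises, in BGIOSGA020470, was slight and near the threshold (0.15 ± 0.07, adjusted p = 0.0409 by edgeR). Aminoacyl-tRNA synthetase genes, matched by words that also take in 8 genes of the CAAD domain, had 9 higher and 7 lower of 19 tested (median 0.03). Respiratory chain genes had 12 higher and 14 lower of 33 tested (median −0.13). The shares of the synthetases (47.4% higher, 36.8% lower) and of the respiratory chain (36.4% higher, 42.4% lower) were near those of all genes.

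The other ribosomal proteins of the table fell more uniformly. Of 221 tested, a list that takes in the cytosolic ribosome and any bacterial-type names outside the rule, 189 were lower and 20 higher (median −0.85), and their summed level was 26303 ± 379 CPM in Ls-6mm and 48205 ± 1148 CPM in Ls-4mm. By comparison, 26 of 39 organelle-type genes were lower and 10 higher (median −0.49). The shares over all genes tested were 38.6% lower and 42.0% higher. The difference between the lists was not tested.

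**Figure D4:**
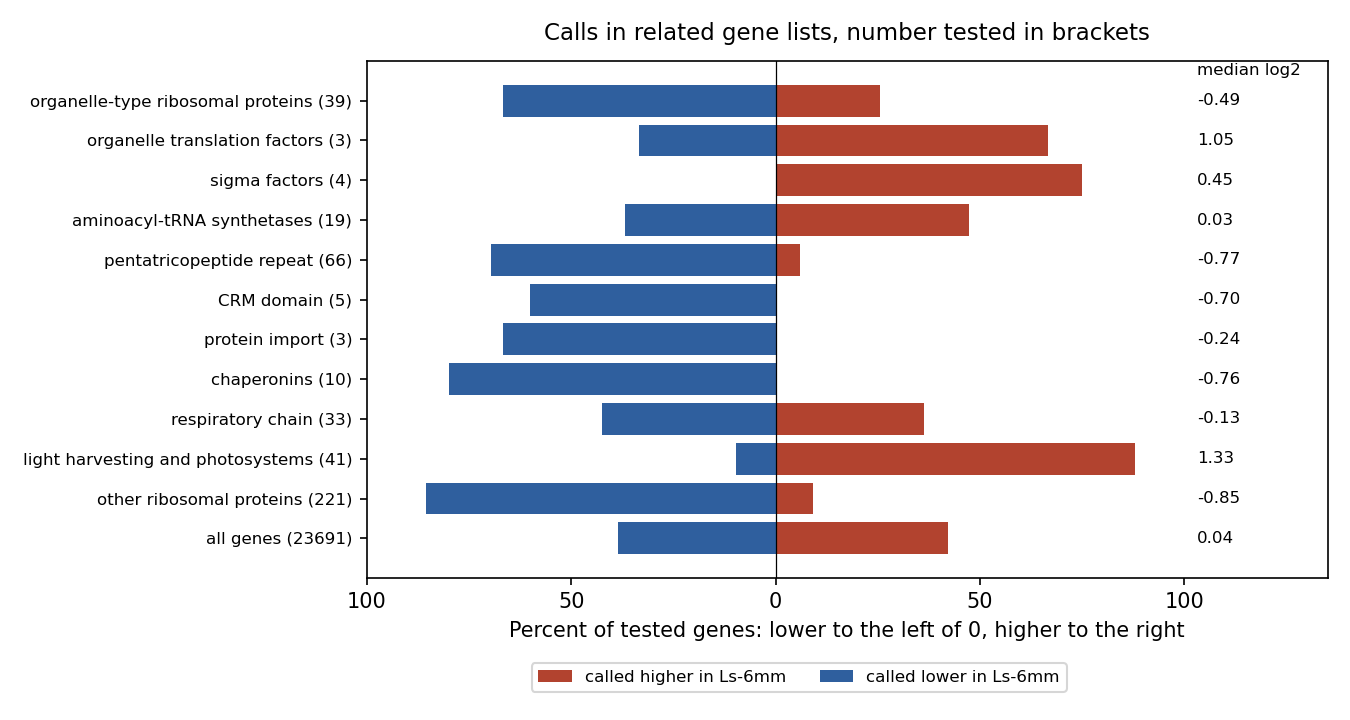
Percent of the tested genes of each list called lower (left of 0) and higher (right of 0) in Ls-6mm, with the number tested in brackets and the median log2 fold change at right. Of the 39 organelle-type ribosomal proteins 26 are lower and 10 higher, against 189 and 20 of 221 other ribosomal proteins, and 4 and 36 of 41 light-harvesting and photosystem genes.

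Markers of several cell types moved with the stage, and their part in the changes above was not tested. Beside them, 42.0% of all genes tested were higher and 38.6% lower. Of 41 tested light-harvesting and photosystem genes, which mark green tissue, 36 were higher and 4 lower, with a summed level of 5241 to 5461 CPM in Ls-6mm and 2178 to 2517 CPM in Ls-4mm. Of 26 tested genes from a list of 66 for the tapetum and pollen wall, 21 were higher and 2 lower. The list summed to 4174 to 4313 CPM in Ls-6mm and 746 to 878 CPM in Ls-4mm, with 24 of its genes at 0 in Ls-6mm and 39 at 0 in Ls-4mm. Some of the 21, such as BGIOSGA033154 (977 CPM in Ls-6mm, 0.0844 CPM in Ls-4mm), passed the filter through the Ls-6mm libraries alone. For such genes a difference was built into their entering the test, so the count of 21 is a description. All 7 markers of dividing cells were lower (177 to 182 CPM in Ls-6mm, 1154 to 1168 CPM in Ls-4mm). The HORMA domain gene BGIOSGA014841 was lower, at 9.53 ± 0.718 CPM in Ls-6mm and 56.1 ± 5.05 CPM in Ls-4mm. It was listed for meiosis by its domain name alone, and its description gives no meiotic role. The meiotic recombination gene SPO11-1 was not called. Anther-specific and pollen allergen-like genes summed to 13252 ± 208 CPM in Ls-6mm and 549 ± 20.8 CPM in Ls-4mm.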

How the data were processed

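The analysis used 3 libraries of Ls-6mm and 3 of Ls-4mm, assigned by their titles and age labels. The Ls-8.5mm libraries were not analysed here, and 36 further columns of sample values were not used. According to the methods of the study, the authors discarded reads that held adapter or undetermined bases or were of low quality, then aligned the pairs by HISAT2 2.0.5. The deposited count values are whole numbers per gene (the submitters' processing notes list featureCounts 1.5.0-p3). The deposited FPKM values follow from these counts, the coding length and a scaled library size. Lengths of all 57 genes are multiples of 3 and so hold no UTRs. For the strand setting of the counting, the sources used here give nothing. The study names an O. longistaminata reference (Ensembl), whereas the identifiers carry the prefix of an indica rice annotation, so the assembly is unsettled. Columns of the authors' own comparisons (fold changes and p-values) were not used.

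Counts were filtered with filterByExpr (minimum 10 counts, total 15), scaled by TMM and tested with the quasi-likelihood test of edgeR 4.0.16 (R 4.3.3) over the 23691 genes left, with stage as the only factor and Benjamini-Hochberg adjustment over all of them. A gene was called at an adjusted p under 0.05, a threshold given with the results of the study, whose methods give a stricter one that was run as an alternative. Levels are TMM-scaled CPM with SD over libraries. The biological coefficient of variation was 4.73%. Alternatives were DESeq2 1.42.0, limma 3.58.1 on log2(FPKM + pseudocount), other scalings, filters and thresholds, a replicate block and leaving out each library. The genes and lists were chosen with earlier results of these data known. Named genes were, per class, the most abundant, the largest rises and falls without overlap, genes called against their class, and genes of the same subunit. The protein data of the study were not used.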

Additional observations from a re-analysis of the deposited data

How the results depend on the processing

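Of 545 combinations of a tested gene and an alternative, 541 kept both direction and call, 2 lost the call (BGIOSGA009859, given above), 2 gained it (BGIOSGA010000 and BGIOSGA015358, with library size only) and none reversed. Requiring an adjusted p of at most 0.001 and a 2-fold change left 5591 genes higher and 3145 lower in the whole table, 5 and 6 of the tested ribosomal protein genes, 0 and 2 of the mitochondrial class, and 5 and 4 of the class named by family. Without the genes named by family alone, 8 were lower and 1 higher (median −0.57 on the log2 scale). The median of −0.49 became −0.48 with DESeq2 and with its size factors, −0.63 with library size only, −0.59 without a filter, −0.44 with at least 10 counts in every library and −0.53 with limma on log2(FPKM + 0.1), and ranged from −0.54 to −0.42 when 1 library was left out. The median of the mitochondrial class became −0.70 with library size only and −0.51 with at least 10 counts in every library, and that of the class named by family −0.53 with library size only and −0.43 with limma on log2(FPKM + 1) or log2(FPKM + 0.1), with a leave-one-out range of −0.42 to −0.39. With library size only the summed CPM was 978 in Ls-6mm and 1278 in Ls-4mm for all genes, 327 and 454 for the mitochondrial class and 650 and 824 for the class named by family. Without the most abundant gene these sums were 870 and 1058, 188 and 272, and 625 and 726. The cause of these shifts was not tested. Same-numbered libraries of the stages did not deviate together (r = −0.028, −0.013 and −0.009). These values give no sign of pairing by number, but noise between libraries could hide a shared origin, so they do not settle it. With the replicate block, 10 of the genes were higher and 26 lower, and 9833 and 8991 in the whole table. Reads shared between near-identical models, overlapping genes and antisense genes could not be resolved from the counts, and genes at a few counts support no statement.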

Other observations

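Outside the rule, 4 further genes carried the words 50S or PSRP-3 in their description without the words chloroplast or mitochondria and without a listed family, and they were picked out after the table had been read. The gene for 50S ribosomal protein L31 (BGIOSGA001162) was the most abundant of them, with 108, 106 and 106 CPM in Ls-6mm and 43.1, 47.0 and 46.9 CPM in Ls-4mm (log2 fold change 1.22 ± 0.05, SE). PSRP-3 (BGIOSGA016548), a small-subunit protein shared by plastids and cyanobacteria, had 40.1, 36.9 and 36.8 CPM in Ls-6mm and 21.2, 22.6 and 19.0 CPM in Ls-4mm (0.86 ± 0.07). The gene for 50S ribosomal protein L35 (BGIOSGA023367) had 26.0, 23.1 and 26.3 CPM in Ls-6mm and 9.38, 7.34 and 6.45 CPM in Ls-4mm (1.71 ± 0.12), whereas the L35 gene described above (BGIOSGA031323) fell by 0.75 on the log2 scale. The gene for 50S ribosomal protein L20 (BGIOSGA004405) fell, with 17.2, 17.2 and 17.1 CPM in Ls-6mm and 32.7, 31.3 and 31.5 CPM in Ls-4mm (−0.89 ± 0.07), as did the L20 gene BGIOSGA017691.

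A model with the S16 family and an isocitrate/isopropylmalate dehydrogenase domain in the same model (BGIOSGA039058, on the scaffold AAAA02040907.1 from 702 to 3630) was at 0 in every library. The 8 genes with the CAAD domain included 5 that rose and 2 that fell (median log2 fold change 0.86). Among all genes tested, 42.0% were higher and 38.6% lower.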
